A study of Homo sapiens with 9 samples.

Results

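The genes described here act in the response to misfolded protein in the endoplasmic reticulum (ER) and in ER-associated degradation (ERAD). The 10 genes ERN1, ATF6, XBP1, HERPUD1, SEL1L, DERL1, EDEM1, DNAJB9, DNAJC3 and MANF were taken by name from an array table of 12165 genes, and all 10 were found. They are measured by 16 of the 19724 probe sets that the platform annotation assigns to a single gene. Where a gene has several, it is represented by the one of highest mean, and the others are given beside it. All 9 arrays hold RNA of LNCaP, an androgen-dependent line of human prostate cancer cells, kept first for 2 days in medium with charcoal-stripped serum, from which steroids have been removed. The cultures then received 1 nM of the synthetic androgen R1881 with 1.25 µM celastrol (a plant triterpenoid), 1 nM R1881 with DMSO, or the solvents ethanol and DMSO as vehicle, with 3 biological replicates of each. The treatment time is 24 h in all descriptions, but the titles of the androgen arrays give 6 h. This conflict touches every comparison with the androgen arrays and was not settled. No culture with celastrol and without androgen was analysed here.

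In the unfolded protein response (UPR), sensors in the ER membrane detect unfolded protein. IRE1, encoded by ERN1, splices the XBP1 mRNA so that it encodes an active transcription factor, and ATF6 is cut in the Golgi to release another. PERK, encoded by EIF2AK3, slows translation and favours synthesis of the transcription factor ATF4. XBP1 and ATF6 raise genes for chaperones and for ERAD, in which misfolded proteins are recognised, moved back to the cytosol and degraded by the proteasome. Prostate epithelium is a secretory tissue, and androgen drives its output of secreted protein. The arrays measured mRNA abundance, so that XBP1 splicing, ATF6 cleavage and protein levels were not measured.

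Bases upstream of the starts of 9 of the 10 genes were found in a RefSeq promoter table (GRCh38.p14). They were searched on both strands, over 250 bases before the start, for letters known from UPR promoters. For the 9 genes only the entry at the outer start of the gene was used. The shares given beside them are over all entries, which were not matched to the 9 for base composition. The ER stress response element ERSE (CCAAT and CCACG with any 9 bases between them) was found before XBP1 and in 0.074% of all 35116 promoter entries. ERSE-II (ATTGG and CCACG with 1 base between them) was found before HERPUD1 and in 0.0513% of entries. Their shared part CCACG, which both contain, was found before 7 of the 9 genes (XBP1, HERPUD1, EDEM1, MANF, DNAJB9, DNAJC3 and SEL1L) and in 33.5% of entries. TGACGTGG, the core of the UPR element, and the palindromic androgen response element (AGAACA and TGTTCT with 3 bases between them) were found before none of the 9, and in 0.612% and 0.00285% of entries. TGATGNAAT, known from promoters bound by ATF4 with C/EBP factors, was also found before none of them, and in 0.888% of entries. Letters this rare over all entries were likely to be absent before 9 genes in any case. Their absence therefore does not decide whether androgen receptor or the other factors act on these genes. A match is a string of letters in this window and not a measured binding site. Shown are the 150 bases before the start of HERPUD1 (chr16:56931992-56932141, plus strand) and XBP1 (chr22:28800570-28800719, minus strand), which hold the complete elements, of DNAJB9 (chr7:108569724-108569873, plus strand), which had the largest change with androgen, and of ATF6 (chr1:161766170-161766319, plus strand), which has no CCACG. Capitals mark the fixed letters of ERSE, ERSE-II and CCACG on either strand.
HERPUD1: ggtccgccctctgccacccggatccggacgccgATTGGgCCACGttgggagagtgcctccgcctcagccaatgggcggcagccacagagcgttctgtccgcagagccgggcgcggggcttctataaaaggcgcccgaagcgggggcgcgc
XBP1: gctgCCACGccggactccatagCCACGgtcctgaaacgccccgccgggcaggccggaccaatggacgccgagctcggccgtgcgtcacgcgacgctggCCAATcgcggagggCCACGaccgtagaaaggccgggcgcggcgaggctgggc
DNAJB9: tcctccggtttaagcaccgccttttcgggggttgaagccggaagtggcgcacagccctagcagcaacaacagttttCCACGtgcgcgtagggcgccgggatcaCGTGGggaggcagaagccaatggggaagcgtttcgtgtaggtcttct
ATF6: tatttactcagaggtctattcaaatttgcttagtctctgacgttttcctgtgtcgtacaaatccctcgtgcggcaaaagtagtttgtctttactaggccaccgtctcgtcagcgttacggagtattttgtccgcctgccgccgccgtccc

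The labelled treatments were visible in their known targets. Intensity of FKBP5, a classical androgen target, lay at 970 to 1424 in androgen plus celastrol, 2839 to 3252 in androgen and 129 to 135 in vehicle. HMOX1, a known target of oxidative stress, lay at 4701 to 6510 in androgen plus celastrol, 51.7 to 80.1 in androgen and 52.8 to 91.4 in vehicle. Of 7 luminal prostate markers listed, 5 were measured, with mean intensities of 2603 to 12891. The 13 measured of 14 markers of basal, stromal, immune and endothelial cells had means of 27.7 to 70.4, all below the median gene. Their summed intensity was 522 to 574 in androgen plus celastrol, 514 to 581 in androgen and 598 to 767 in vehicle, so that the vehicle arrays were higher at these low levels. Vehicle replicate 3 stood apart, with a standard deviation of gene-wise deviations from its group mean of 0.31 on the log2 scale, against 0.12 to 0.20 on the other arrays. The part of these 2 features in the results was not tested, and all member calls of both comparisons with vehicle were also made without that array.

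With androgen, 7 of the 10 genes rose and none fell (limma, Benjamini-Hochberg adjusted p over all genes, threshold 0.05). Over all genes, 7.17% were called higher and 5.84% lower. The risers were XBP1, HERPUD1, DERL1, EDEM1, DNAJB9, DNAJC3 and MANF, and the median log2 fold change of the 10 genes was 0.71, against -0.04 over all genes. With celastrol added to androgen, 4 genes rose over androgen alone and none fell, where 9.0% of all genes were called higher and 7.24% lower. These were ATF6, SEL1L, DERL1 and DNAJC3, and the median was 0.28, against 0.02 over all genes. Between androgen plus celastrol and vehicle, 9 genes were higher and none was lower, where 13.3% of all genes were called higher and 10.0% lower, with a median of 0.94 against -0.01. ERN1 was the gene with no call. Counted by probe set, 10 of 16 rose with androgen (6.30% of all single-gene probe sets), 5 with celastrol over androgen (7.25%), and 13 were higher in androgen plus celastrol than in vehicle (11.5%). None of the 16 was lower. At an unadjusted p under 0.05, 7 of the 10 genes differed with androgen (23.4% of all genes), 6 with celastrol over androgen (26.8%) and 9 between androgen plus celastrol and vehicle (34.5%), all of them higher. The 3 comparisons share arrays, so that they are not independent of each other. Arrays of the groups did not overlap for 7 of the 10 genes between androgen and vehicle, 7 between androgen plus celastrol and androgen, and 9 between androgen plus celastrol and vehicle. Over all genes these shares, in either direction, were 28.3%, 35.9% and 37.2%. Between androgen plus celastrol and androgen, XBP1 was the gene without overlap that lay lower with celastrol, and the others lay higher.

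**Figure D1:**
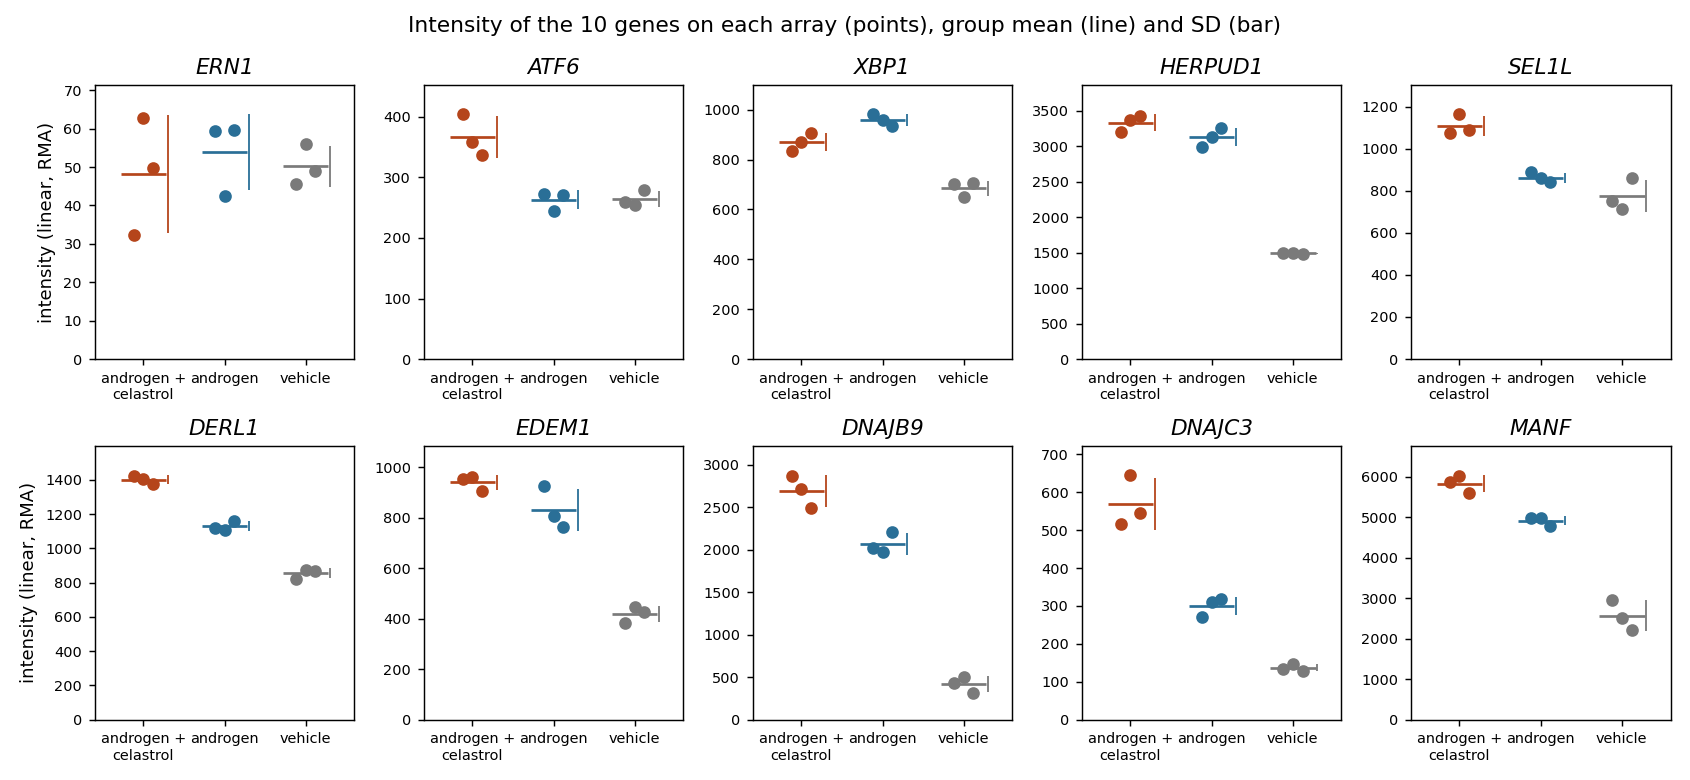
Intensity (linear scale, RMA values) of the representative probe set of each of the 10 genes on all 9 arrays. Points are arrays, horizontal lines group means and vertical bars SD (n = 3). For all genes but ERN1, ATF6 and XBP1 the mean is highest in androgen plus celastrol, next in androgen and lowest in vehicle. The ERN1 groups overlap between 32.3 and 62.9.

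ERN1 encodes the sensor IRE1. Its probe set read 32.3, 62.9 and 49.6 in androgen plus celastrol, 59.5, 42.5 and 59.7 in androgen, and 45.6, 56.1 and 48.9 in vehicle. The groups overlapped in all comparisons. Of all genes, 33.4% had a lower mean. Every ERN1 value lay under the array medians over all probe sets (72.2 to 80.2), so that the signal was low. The log2 fold change was 0.09 ± 0.24 for androgen against vehicle (SE of the fit, n = 3 per group, adjusted p = 0.878) and -0.19 ± 0.24 for androgen plus celastrol against androgen (adjusted p = 0.684). The 95% confidence intervals, -0.45 to 0.63 and -0.73 to 0.35, leave room for changes in either direction.

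ATF6, the other sensor of the 10, was higher with celastrol. Its intensity was 404, 358 and 337 in androgen plus celastrol, 273, 245 and 271 in androgen, and 259.8, 255 and 279 in vehicle. Each celastrol array was above all others, and the androgen and vehicle arrays overlapped. The rise over androgen was 0.47 ± 0.09 (adjusted p = 0.00879) and that over vehicle 0.47 ± 0.09 (adjusted p = 0.00656), while androgen against vehicle gave -0.01 ± 0.09 (adjusted p = 0.972). A further, dimmer ATF6 probe set read 67.1, 62.3 and 61.5 in androgen plus celastrol, 55.1, 51.7 and 44.7 in androgen, and 52.9, 55.1 and 48.8 in vehicle. It had the same order, but its difference of 0.34 ± 0.10 from androgen did not pass (adjusted p = 0.0609 over all single-gene probe sets). Nor did its difference of 0.28 ± 0.10 from vehicle (adjusted p = 0.0853). The ATF6 calls were lost when the values were quantile normalized again (adjusted p = 0.0543 against androgen and 0.0804 against vehicle) or cyclic loess normalized (0.0557 and 0.0617). The call against vehicle was also lost with the replicate block within the 2 groups (adjusted p = 0.103).

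XBP1, the transcription factor whose mRNA IRE1 splices, rose with androgen. Intensity was 835, 868 and 908 in androgen plus celastrol, 981, 959 and 934 in androgen, and 700.4, 651 and 705 in vehicle. All androgen arrays were above all vehicle arrays, and the celastrol arrays lay between them without overlap. The rise with androgen was 0.48 ± 0.07 (adjusted p = 0.00255). Androgen plus celastrol against androgen gave -0.14 ± 0.07, which did not pass (adjusted p = 0.287, 95% interval -0.31 to 0.03), and against vehicle 0.35 ± 0.07 (adjusted p = 0.00934). It was the only one of the 7 androgen-raised genes with a negative estimate in the celastrol comparison. The array does not separate spliced from unspliced XBP1 mRNA here.

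Of the ERAD genes, HERPUD1 encodes a membrane protein that organises the degradation complex and is a known UPR target. Its intensity was 3199.9, 3375 and 3426 in androgen plus celastrol, 2994, 3139 and 3257 in androgen, and 1489.8, 1494 and 1483 in vehicle. The vehicle arrays were close to each other (SD 5.64) and all below the others, while the 2 groups with androgen overlapped. Androgen raised it by 1.07 ± 0.07, or 2.10-fold (adjusted p = 1.96e-05). The change with celastrol over androgen was 0.09 ± 0.07 (adjusted p = 0.496, 95% interval -0.07 to 0.25). Its promoter holds the ERSE-II letters between 117 and 107 bases before the start, and that of XBP1 the ERSE letters between 52 and 34, as printed above.

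EDEM1 encodes a mannosidase-like protein that directs misfolded glycoproteins to ERAD. It read 952, 962 and 907 in androgen plus celastrol, 925, 808 and 762 in androgen, and 384, 447 and 427 in vehicle. Androgen raised it by 0.99 ± 0.10 (1.98-fold, adjusted p = 2e-04), with no overlap. The groups with and without celastrol overlapped, and their difference of 0.18 ± 0.10 did not pass (adjusted p = 0.288).

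DERL1 encodes a component of the channel through which ERAD substrates leave the ER. Its intensity was 1425, 1406 and 1374 in androgen plus celastrol, 1117, 1106 and 1162 in androgen, and 821, 873 and 868 in vehicle. The 3 groups did not overlap. DERL1 rose with androgen by 0.40 ± 0.07 (adjusted p = 0.00487) and with celastrol over androgen by 0.31 ± 0.07 (adjusted p = 0.0154). The other DERL1 probe set read 396, 397 and 458 in androgen plus celastrol, 405, 405 and 426 in androgen, and 304, 270.1 and 228 in vehicle. It also rose with androgen (0.63 ± 0.12, adjusted p = 0.00737) but gave 0.01 ± 0.12 for celastrol over androgen (adjusted p = 0.965), so that the probe sets disagree on the celastrol step. With the mean of both, that step was 0.16 (adjusted p = 0.207).

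SEL1L encodes the partner of the ERAD ubiquitin ligase HRD1, and its 4 probe sets differed on the androgen step. The representative one read 1076, 1163 and 1089.7 in androgen plus celastrol, 888, 860.2 and 839.8 in androgen, and 751, 711 and 860.2 in vehicle. The celastrol arrays were above all others, and 1 vehicle array equalled an androgen array. It gave 0.36 ± 0.09 for celastrol over androgen (adjusted p = 0.0247) and 0.16 ± 0.09 for androgen over vehicle (adjusted p = 0.349). The celastrol call of this set passed in 13 of 22 alternative settings and was lost, among others, after quantile (adjusted p = 0.0555) and cyclic loess normalization (0.0758). A dimmer set read 249, 303 and 307 in androgen plus celastrol, 202, 193 and 202 in androgen, and 155, 143 and 114 in vehicle. There both steps passed, at 0.52 ± 0.13 with celastrol (adjusted p = 0.0303) and 0.54 ± 0.13 with androgen (adjusted p = 0.0277). The remaining sets had no call in either step: one gave 0.51 ± 0.16 with androgen (adjusted p = 0.0893) and 0.22 ± 0.16 with celastrol (adjusted p = 0.495), and the other stayed between 27.9 and 40.5 on all arrays. Against vehicle, 3 of the 4 were higher in androgen plus celastrol, by 0.52, 0.73 and 1.06.

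**Figure D2:**
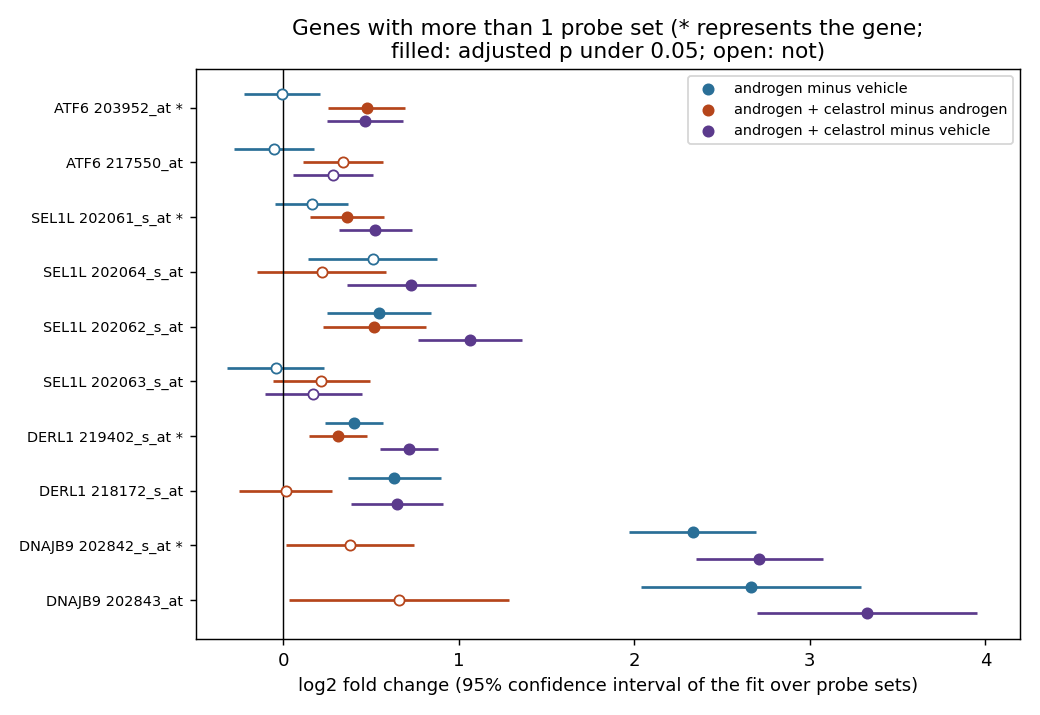
Log2 fold change with 95% confidence interval for each probe set of the 4 genes that have more than 1, in the 3 comparisons. Filled points passed adjusted p = 0.05 over all single-gene probe sets; the 2 DERL1 sets lie apart in androgen plus celastrol minus androgen (0.31 and 0.01), and both DNAJB9 sets lie above 2 for androgen minus vehicle.

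DNAJB9 encodes ERdj4, an ER co-chaperone of the HSP70 protein BiP that binds ERAD substrates and is known to restrain IRE1. It had the largest change of the 10 genes with androgen. Intensity was 2863, 2718 and 2492 in androgen plus celastrol, 2018, 1974 and 2209 in androgen, and 435, 503 and 315 in vehicle. Androgen raised it by 2.33 ± 0.16, or 5.04-fold (adjusted p = 2.23e-05), which ranked 43rd by size of change among 12165 genes. The celastrol arrays were all above the androgen arrays, but the difference of 0.38 ± 0.16 did not pass (adjusted p = 0.165). It passed without vehicle replicate 3 (adjusted p = 0.0195), in a fit of the 2 groups alone (0.0247) and with array weights (0.0237). The other DNAJB9 probe set read 518, 548 and 522 in androgen plus celastrol, 354, 316 and 335 in androgen, and 82.0, 56.0 and 32.1 in vehicle. Its rise with androgen was 2.66 ± 0.28 (adjusted p = 0.000283), and its celastrol step was 0.66 ± 0.28 (adjusted p = 0.181).

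DNAJC3 encodes p58IPK, an ER co-chaperone known also as an inhibitor of eIF2alpha kinases. Its intensity was 516, 645 and 545 in androgen plus celastrol, 272, 311 and 318 in androgen, and 135, 147 and 129.5 in vehicle. The 3 groups were separate, and each step was large for this set of genes. Androgen raised it by 1.13 ± 0.11 (adjusted p = 0.00019), and celastrol over androgen by 0.92 ± 0.11 (adjusted p = 0.000736), so that androgen plus celastrol stood 4.13-fold above vehicle (log2 2.05 ± 0.11). The celastrol step ranged from 0.83 to 0.99 over 22 alternative settings and passed in all of them.

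MANF encodes a small protein of the ER lumen that is induced and secreted under ER stress. It read 5879, 6013 and 5601 in androgen plus celastrol, 4975, 4981 and 4791 in androgen, and 2968, 2522 and 2227 in vehicle. The 3 groups did not overlap. Androgen raised MANF by 0.94 ± 0.11 (1.92-fold, adjusted p = 0.000428), while celastrol over androgen gave 0.25 ± 0.11, which did not pass (adjusted p = 0.179).

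**Figure D3:**
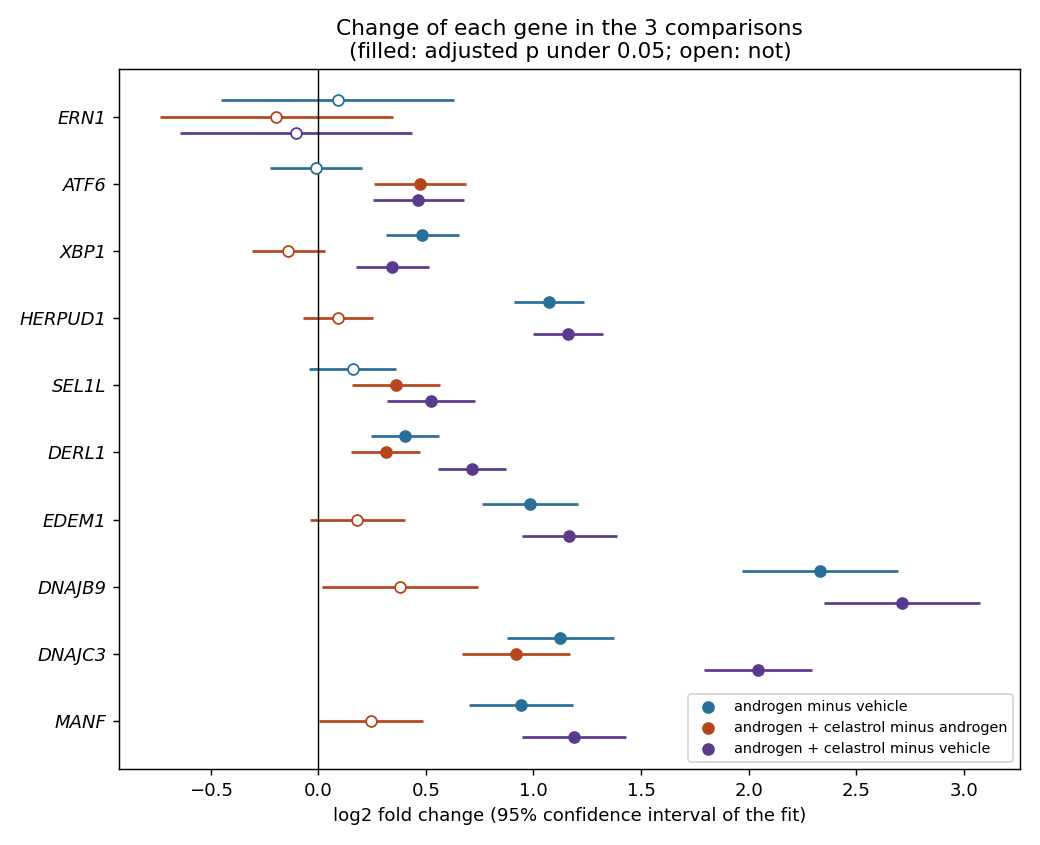
Log2 fold change with 95% confidence interval (limma fit, n = 3 arrays per group) of the 10 genes in the 3 comparisons. Filled points passed adjusted p = 0.05; for androgen minus vehicle the values run from -0.01 (ATF6) to 2.33 (DNAJB9), and for androgen plus celastrol minus androgen from -0.19 (ERN1) to 0.92 (DNAJC3).

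Of the 7 androgen-raised genes, DNAJC3 and DERL1 were called higher with celastrol, DERL1 on its brighter probe set only, and the other 5 were not called in that step. The 95% intervals of the step, not adjusted for the number of genes, were -0.31 to 0.03 for XBP1, -0.07 to 0.25 for HERPUD1, -0.04 to 0.40 for EDEM1, 0.02 to 0.74 for DNAJB9 and 0.004 to 0.49 for MANF. FKBP5 and the prostate-specific antigen gene KLK3 were also raised by androgen (4.49 ± 0.14 and 2.15 ± 0.08). Both were lower with celastrol over androgen, with log2 fold changes of -1.37 ± 0.14 (adjusted p = 0.00027) and -0.85 ± 0.08 (adjusted p = 0.000181). They stayed above vehicle (3.12 ± 0.14 and 1.30 ± 0.08). A kept androgen rise is not particular to the 10 genes. PMEPA1 and TNFRSF10B, named below for profiles like those of members, rose by 2.46 and 0.98 with androgen. They gave -0.07 and 0.02 for celastrol over androgen. The count of 4 genes raised by celastrol was 2 without androgen replicate 1, androgen replicate 2 or androgen plus celastrol replicate 2, and 5 without vehicle replicate 3. The calls of DNAJC3 and ATF6 stood without any 1 array. DERL1 was lost without each of those first 3 arrays, and SEL1L without these and without androgen replicate 3 or androgen plus celastrol replicate 3. All 7 calls for androgen against vehicle stood without any 1 array.

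Other genes of the same machinery were counted in 4 lists, against shares over all genes of 7.17% higher and 5.84% lower with androgen, 9.0% and 7.24% with celastrol over androgen, and 13.3% and 10.0% for androgen plus celastrol against vehicle. A single call among 24 genes lies under each of those shares. Of 24 measured ERAD genes beyond the 10, 6 rose and 1 fell with androgen (median 0.16). The reductase and co-chaperone DNAJC10 rose by 1.52 ± 0.13, the ubiquitin-conjugating enzyme UBE2J1 by 1.32 ± 0.11, EDEM3 by 1.22 ± 0.15 and the glycanase NGLY1 by 0.65 ± 0.12. ERLIN2, part of a membrane complex for ERAD of the IP3 receptor, was the gene that fell (-0.45). With celastrol over androgen 9 rose and 1 fell (median 0.20). DERL2, a relative of DERL1, rose by 0.64 ± 0.09, and UBXN4 by 0.63 ± 0.12 and UFD1 by 0.60 ± 0.12, which bind the segregase p97. UBE2J1 was the gene that fell (-0.65 ± 0.11, adjusted p = 0.00455), with 922, 869 and 985 in androgen plus celastrol, 1559.7, 1398 and 1391 in androgen, and 567, 515 and 671 in vehicle. Between androgen plus celastrol and vehicle 12 were higher and 1 lower (median 0.37). The celastrol count of 10 was 6 without androgen replicate 1, androgen replicate 3 or androgen plus celastrol replicate 3, and 4 with the replicate block within the 2 groups. The count of 13 against vehicle was 8 with that block.

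Of 15 measured ER chaperones and foldases, 9 rose and none fell with androgen (median 0.43). SDF2L1, a partner of ER chaperones, rose by 1.42 ± 0.17, the oxidase ERO1A by 0.93 ± 0.13, the disulfide isomerase PDIA4 by 0.74 ± 0.09 and the chaperone HYOU1 by 0.59 ± 0.08. With celastrol over androgen 5 rose and none fell (median 0.33), with DNAJC1 at 0.89 ± 0.15 and SEC63, a translocation co-chaperone, at 0.48 ± 0.08. Left-out arrays moved this number to 2 (androgen replicate 1 or 2), 3 (androgen replicate 3, vehicle replicate 1 or any 1 androgen plus celastrol array) and 8 (vehicle replicate 3). Against vehicle, 14 of the 15 were higher in androgen plus celastrol (median 0.53), but 6 with the replicate block within the 2 groups, where the numbers do not pair the arrays.

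In the PERK and ATF4 branch, 9 genes were measured. With androgen 5 rose and 1 fell (median 0.35), and with celastrol over androgen 6 rose and none fell (median 0.91). Against vehicle 8 were higher and none was lower in androgen plus celastrol (median 1.20). DDIT3, which encodes the stress factor CHOP, read 2757, 2836 and 2220 in androgen plus celastrol, 432, 447 and 325 in androgen, and 625, 625 and 557 in vehicle. It was thus the gene of the branch that fell with androgen (-0.60 ± 0.15, adjusted p = 0.0261) and had the largest rise there with celastrol (2.70 ± 0.15, adjusted p = 1.93e-05). The sensor gene EIF2AK3 rose with androgen (0.58 ± 0.09, adjusted p = 0.00254) and gave 0.00 ± 0.09 for celastrol over androgen (adjusted p = 0.995). CHAC1, which degrades glutathione, rose by 1.97 ± 0.10 and the pseudokinase gene TRIB3 by 1.88 ± 0.21 with celastrol over androgen. ATF3 had the largest change of the branch with androgen (0.73 ± 0.18, adjusted p = 0.0307). Its deposited value was the same, 595.6, on all 3 androgen arrays. ATF4 itself was not called with androgen (0.07 ± 0.11, adjusted p = 0.767). It rose by 0.91 ± 0.11 with celastrol over androgen (adjusted p = 0.000608). The androgen count of 6 in this branch was 2 without androgen replicate 1 and 3 without androgen replicate 2 or 3, vehicle replicate 1 or 2 or androgen plus celastrol replicate 3.

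Of 13 measured genes of UPR signalling outside the 10 and that branch, 4 rose and none fell with androgen (median 0.21). These were the membrane-bound transcription factors CREB3L2 (1.78 ± 0.16) and CREB3 (0.53 ± 0.11), the kinase gene MAP3K5 (0.76 ± 0.16) and the protease gene MBTPS2 (0.50 ± 0.12), whose product makes one of the cuts that release ATF6. With celastrol over androgen, CREB3 alone passed (1.08 ± 0.11, adjusted p = 0.000308), with a median of 0.01 for the list. This 1 of 13 lies near the share over all genes (9.0% higher), and 3 genes were called after quantile or cyclic loess normalization. Against vehicle 5 were higher and 1 lower in androgen plus celastrol. The androgen count was 2 without androgen replicate 1 or 2. The celastrol count was 2 without vehicle replicate 3. The count of 6 against vehicle was 2 without androgen plus celastrol replicate 2 or 3, or with the replicate block within the 2 groups.

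**Figure D4:**
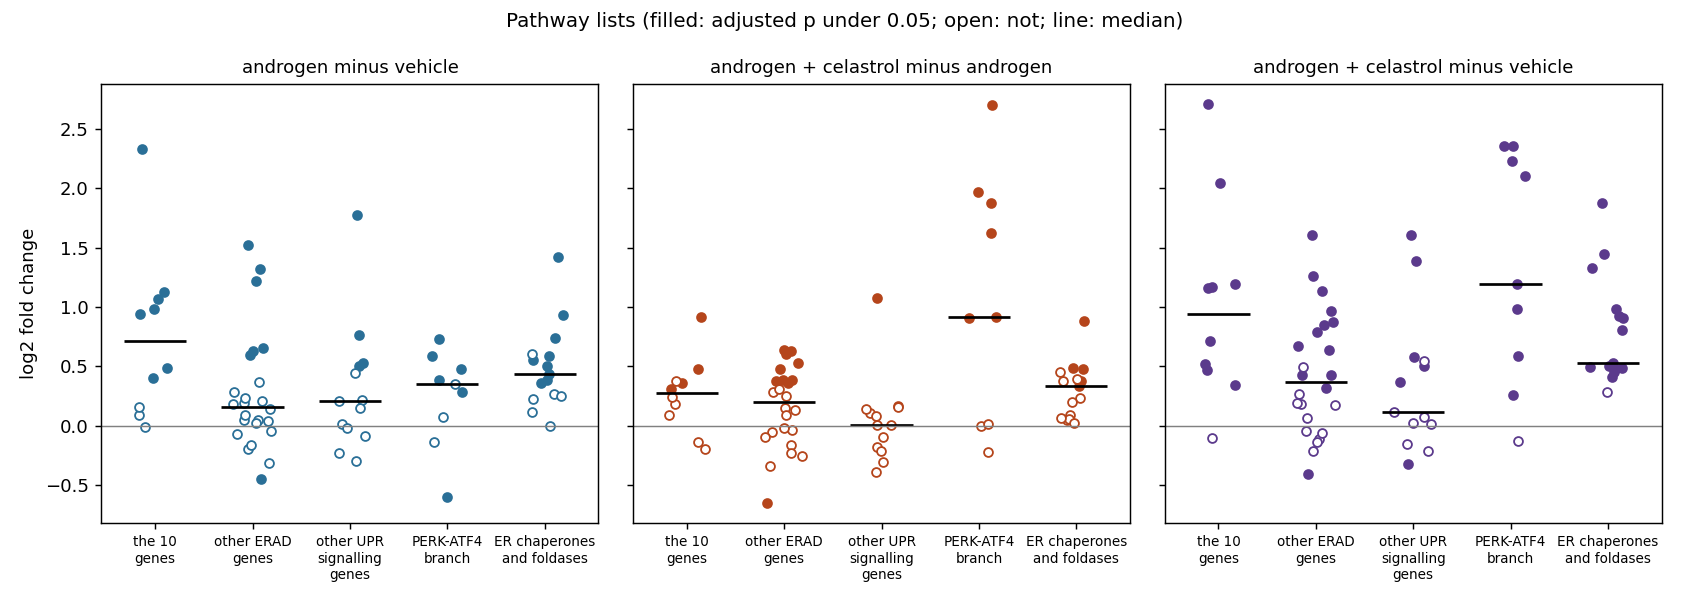
Log2 fold change of the 10 genes and of the measured genes of the 4 lists, a point per gene, in the 3 comparisons; filled points passed adjusted p = 0.05 over all genes and lines are medians. For androgen plus celastrol minus androgen the median is 0.28 for the 10 genes and 0.91 for the PERK and ATF4 branch.

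The genes whose pattern over the 9 arrays was most like that of each called gene were sought among 3611 other genes called in at least 1 comparison, by the root mean square difference of log2 values centred on each gene's mean. Nearest to DERL1 was UFM1, a ubiquitin-like modifier, with a difference of 0.03, and nearest to SEL1L was AP2B1 (0.04). MANF was nearest to the acetyl-CoA transporter gene SLC33A1 (0.06) and to SSR2, a subunit of the translocon-associated complex (0.07). XBP1 was nearest to COX17 (0.05) and EIF2S1 (0.05), ATF6 to SNX19 and ZFAND5 (0.05 each), and HERPUD1 to the zinc exporter gene SLC30A1 and the death receptor gene TNFRSF10B (0.10 each). For EDEM1 these were AGPAT5 (0.10) and TNFRSF10B (0.13). The genes with larger changes had less close neighbours, LXN (0.21) and PMEPA1 (0.30) for DNAJB9 and NXF2 (0.20) and the ER chaperone gene CLGN (0.21) for DNAJC3. These are the closest of many, so that closeness describes the profiles and is not tested.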

How the data were processed

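Total RNA was labelled with biotin and hybridised to Affymetrix arrays, per the labels. The deposited values are intensities of 22215 probe sets on 9 arrays, which the authors made by RMA (named in the submitters' processing notes). No version or probe definition is given in those sources. RMA scales arrays to each other, so that differences in total RNA per cell are not measured; upper quartiles still differed between the deposited arrays, from 332.5 (vehicle replicate 3) to 408.7. The table is linear and was taken to log2 (pseudocount 0). Scan dates were not used, so batches of arrays are untested.

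Of the probe sets, 19724 have 1 gene, 568 several and 1923 none listed; 19707 were matched by gene ID to RefSeq symbols. One limma fit (version 3.58.1, R 4.3.3, lmFit and eBayes) held all genes and arrays, with Benjamini-Hochberg adjustment over 12165 genes, or over 19724 probe sets where a single probe set is described. The number of arrays limits the precision (median SE 0.13). P-values weigh each difference against the spread between cultures, pooled over the 3 groups and moderated over all genes by eBayes. The 10 genes and the lists were chosen with earlier results of these data known, and support nothing by their choice. Named genes are the 10 and the checks FKBP5, KLK3 and HMOX1. Up to 4 of the largest called changes per list and comparison, and 2 genes most alike per called gene, were also named. ERLIN2, and EIF2AK3 for celastrol over androgen, were added on their values, and ATF4 for its place in the branch. List members outside the 12165 genes were left out. The fit was tested on simulated data.

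Replicates carry the numbers 1 to 3 in every group. Deviations from group means correlated at 0.40, 0.37 and 0.63 between same-numbered androgen and vehicle arrays, each over 0.1. That cut does not identify pairs, because some arrays of unlike number passed it too. Androgen replicate 1 correlated as closely with vehicle replicate 2 (0.41) as with its own number. Androgen replicate 2 correlated with vehicle replicate 1 at 0.30, somewhat less than with its own number (0.37). The values thus set replicate 3 apart and do not tie replicates 1 and 2 to their own number. Same-numbered arrays of androgen plus celastrol and androgen correlated at -0.09, 0.21 and -0.19. Those of androgen plus celastrol and vehicle correlated at -0.25, 0.11 and -0.29. Arrays of unlike number correlated at -0.28 to 0.27 and at -0.25 to 0.29 in these 2 comparisons. The highest value of each was that of androgen plus celastrol replicate 1 with replicate 3 of the other group. The numbers thus do not pair the arrays of these 2 comparisons, although some arrays of unlike number deviated alike. The printed values come from the fit without the block. Alternatives were other normalizations, a pseudocount of 16, a filter at the percentile 40 of mean intensity, other choices of probe set, other designs and weights, and leaving out each array.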

Additional observations from a re-analysis of the deposited data

How the results depend on the processing

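Over 22 settings, the 7 genes called higher for androgen against vehicle were called in each, and SEL1L was added with array weights (8 genes); none of the 10 was called lower in any comparison. For celastrol over androgen the count of 4 was 2 after quantile or cyclic loess normalization and 2 with the replicate block within the 2 groups, and it ran from 2 to 5 when 1 array was left out. Against vehicle, the 9 genes were 6 with the replicate block within the 2 groups and 9 without any 1 array. Genes called over the whole table were 1583 for androgen against vehicle, 2753 with array weights and 1078 to 1836 without 1 array; 1976 for celastrol over androgen and 1306 to 2667 without 1 array; and 2840 against vehicle, 1099 with the replicate block within the 2 groups and 2285 to 2935 without 1 array. The share of higher calls for androgen against vehicle was 55.1% and became 69.1% (1182 higher, 529 lower) with each array's median subtracted. It was under 50% after quantile normalization (885 higher, 973 lower), with array weights (1257 higher, 1496 lower) and without vehicle replicate 3 (864 higher, 972 lower). Against vehicle, the share for androgen plus celastrol was 57.1%, and it became 66.2% with array medians subtracted and 47.8% after quantile normalization. The replicate block over all 9 arrays gave 7, 3 and 9 called genes of the 10 in the 3 comparisons. SEL1L was lost for celastrol over androgen (adjusted p = 0.0579). For androgen against vehicle the block changed no call of the 10 (1406 genes over the table). There the values set only replicate 3 apart, so that a pairing of replicates 1 and 2 is not established. The remaining causes were not tested. ERN1 lay below the filter on low values and has no value there.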
